A study of Mus musculus with 7 samples.

Results

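Origin recognition and licensing loader genes are the 6 genes of the origin recognition complex (Orc1, Orc2, Orc3, Orc4, Orc5 and Orc6), the genes of the loaders CDC6 and CDT1 (Cdc6 and Cdt1), and Gmnn, the gene of the CDT1 inhibitor geminin. These 9 genes, of 21627 protein-coding genes on the autosomes and X in the RefSeq annotation of GRCm38 (mm10), were chosen by name, and each was studied over its gene body with 5 kb on either side. Replication origins in mouse embryonic stem cells had been mapped by sequencing short nascent strands, the small DNA pieces made when a fork starts, after size selection and digestion of other DNA with lambda exonuclease. The 2 APH libraries came from TetO-CDC6 cells treated with 0.5 µM aphidicolin, a DNA polymerase inhibitor, for 2.5 h. The 2 CDC6 libraries came from the same line, kept for 30 h in 1 µg/ml doxycycline, which turns on CDC6 from the transgene. Of the 2 untreated libraries called WT, WT 2 came from TetO-CDC6 cells, and WT 1 came from another embryonic stem cell line, labelled wild type, in other medium. The APH and WT 2 libraries therefore carry the inducible transgene as well, untreated with doxycycline. The labels do not say whether libraries of a group came from separate cultures, so the spread between them may be technical. These are DNA libraries, so they measure neither the amount of CDC6 nor cell-type markers, and the files give no read depth.

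Origins are licensed before S phase. The origin recognition complex, a ring of related subunits, sits on DNA, and CDC6 joins it. CDT1 then brings the MCM helicase, which is loaded as an inactive pair around the DNA. Geminin binds CDT1 in S and G2 phase and so prevents a further round of loading. Several of these genes are known targets of E2F factors, which turn on genes for DNA replication late in G1. The genes studied here thus encode the proteins that set origins, and the data show where origins lie on these same genes.

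Nascent-strand peaks often lie over gene starts, so the sequence at 4 starts is shown for the cases the results turn on. They run 5′ to 3′ on the gene's strand, 250 bases before the start to 50 after it, from RefSeq on GRCm38.p6. Orc4 (chr2:48950032-48950331, minus strand) had the strongest peak, Orc3 (chr4:34614893-34615192, minus strand) and Orc6 (chr8:85299382-85299681, plus strand) had a start peak in both CDC6 and both WT libraries and in neither APH library, and Cdc6 (chr11:98907901-98908200, plus strand) had none in any library. Capitals in Orc3 and Cdc6 mark an E2F-type motif, and capitals in Orc4 and Orc6 mark a G-quadruplex motif with its G runs on the opposite strand.
Orc4: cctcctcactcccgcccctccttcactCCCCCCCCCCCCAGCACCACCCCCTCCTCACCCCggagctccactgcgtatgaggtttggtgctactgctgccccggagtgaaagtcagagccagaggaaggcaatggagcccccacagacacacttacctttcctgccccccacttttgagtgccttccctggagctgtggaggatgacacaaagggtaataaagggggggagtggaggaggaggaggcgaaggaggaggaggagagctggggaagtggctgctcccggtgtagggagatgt
Orc3: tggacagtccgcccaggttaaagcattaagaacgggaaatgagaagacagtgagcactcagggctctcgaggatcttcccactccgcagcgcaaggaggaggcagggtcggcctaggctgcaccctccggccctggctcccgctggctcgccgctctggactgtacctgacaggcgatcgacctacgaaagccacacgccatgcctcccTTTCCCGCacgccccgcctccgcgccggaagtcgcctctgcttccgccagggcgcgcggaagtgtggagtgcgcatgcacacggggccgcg
Orc6: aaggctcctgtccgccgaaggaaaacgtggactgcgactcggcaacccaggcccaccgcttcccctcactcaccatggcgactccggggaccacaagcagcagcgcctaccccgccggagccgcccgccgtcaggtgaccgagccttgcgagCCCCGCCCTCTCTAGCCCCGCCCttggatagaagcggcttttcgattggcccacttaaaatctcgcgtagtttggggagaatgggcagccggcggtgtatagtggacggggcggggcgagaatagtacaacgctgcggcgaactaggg
Cdc6: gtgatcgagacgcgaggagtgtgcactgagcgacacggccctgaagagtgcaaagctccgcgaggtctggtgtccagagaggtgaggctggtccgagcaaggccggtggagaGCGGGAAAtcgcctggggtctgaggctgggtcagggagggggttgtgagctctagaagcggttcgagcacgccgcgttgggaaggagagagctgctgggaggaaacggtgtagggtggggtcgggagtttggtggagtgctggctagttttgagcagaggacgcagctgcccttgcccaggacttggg

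The E2F-type motifs searched were TTTCCCGC, TTTCGCGC, TTTGCCGC and TTTGGCGC on either strand, counted also where they overlap. A motif lay in the start windows of Orc1 (at position -27 from the start), Orc3 (-41), Cdc6 (-138) and Cdt1 (33), which makes 4 of the 8 genes with an entry in the start table. Such a motif lay in 2.95% of all 17273 start windows and in those of 6 of 18 other licensing genes with an entry. A G-quadruplex motif, 4 runs of at least 3 G spaced by 1 to 7 bases on either strand, lay in Orc4, Orc6 and Cdt1 and in 21.4% of all start windows. The GC content of the windows ranged from 47.7% in Orc2 to 66.7% in Cdt1, and their CpG number from 6 in Orc4 to 32 in Cdt1. Over all genes, the median GC content was 65.7% where all 6 libraries had a start peak and 47.0% where none had. Orc2, at 47.7%, had a start peak in all 6 libraries, and Cdc6 and Orc5, at 63.3% and 64.0%, had none, so these 3 genes lay away from that trend. The motifs describe the sequence, and binding of any factor was not measured.

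The peak lists held 74540 and 71435 peaks in the APH libraries, 72384 and 82071 in the CDC6 libraries, and 94747 (WT 1) and 81056 (WT 2) in the WT libraries. Chromosome 8, which carries Orc6 and Cdt1, held 8.26% of the peaks of WT 1 and between 4.86% and 5.53% of those of the other 5 libraries. A peak's fold over the control library and its q-value are the authors' own, and here they are compared across libraries only as a percentile rank within each list, where 100 is the strongest peak. The lists end at a q-value of about 0.1, so a window without a listed peak may still hold signal below that level. Each condition also had a list of origins, of 31653 (APH), 31384 (CDC6) and 20178 (WT) regions. Every region of the WT origin list recurred in the score list labelled APH 1, and every region of the APH origin list in that labelled CDC6 1. The CDC6 origin list recurred in the score list labelled CDC6 2. The origin lists are named here as deposited, and which libraries they were made from cannot be told apart by these labels.

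The 9 windows held 103 peaks, which joined into 32 separate sites. Of these sites, 8 had a peak in all 6 libraries and 14 in only 1 library. Any overlap joined peaks, so the site counts depend on wide peaks. The WT 1 peaks of 16.9 kb at Cdt1 and 6.30 kb at Gmnn each joined peaks that lie apart in other libraries. Cdt1 thus counts as a site of all 6 libraries, although WT 2 had no peak over its start. Both APH libraries shared a peak at 9 sites, both CDC6 libraries at 15 and both WT libraries at 11. Within the windows, the condition's own origin list placed an origin at 6 of the 9 sites in APH, at 7 of the 15 in CDC6 and at 5 of the 11 in WT. An origin just beyond a window, as the WT origin 5.08 kb from the body of Orc1, was not counted. Peaks per 100 kb of the members' windows numbered 3.20 and 3.73 in the APH libraries, 4.80 and 5.34 in the CDC6 libraries and 4.27 (WT 1) and 5.60 (WT 2) in the WT libraries. Over all gene windows the values were 3.19 and 3.31 in APH, 3.79 and 4.11 in CDC6 and 4.86 and 3.46 in WT. In the members, and likewise over all gene windows, the CDC6 values lay between those of the WT libraries and the APH values lay below both. WT 2 was the higher of the WT libraries in the members, and WT 1 over all gene windows.

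**Figure D1:**
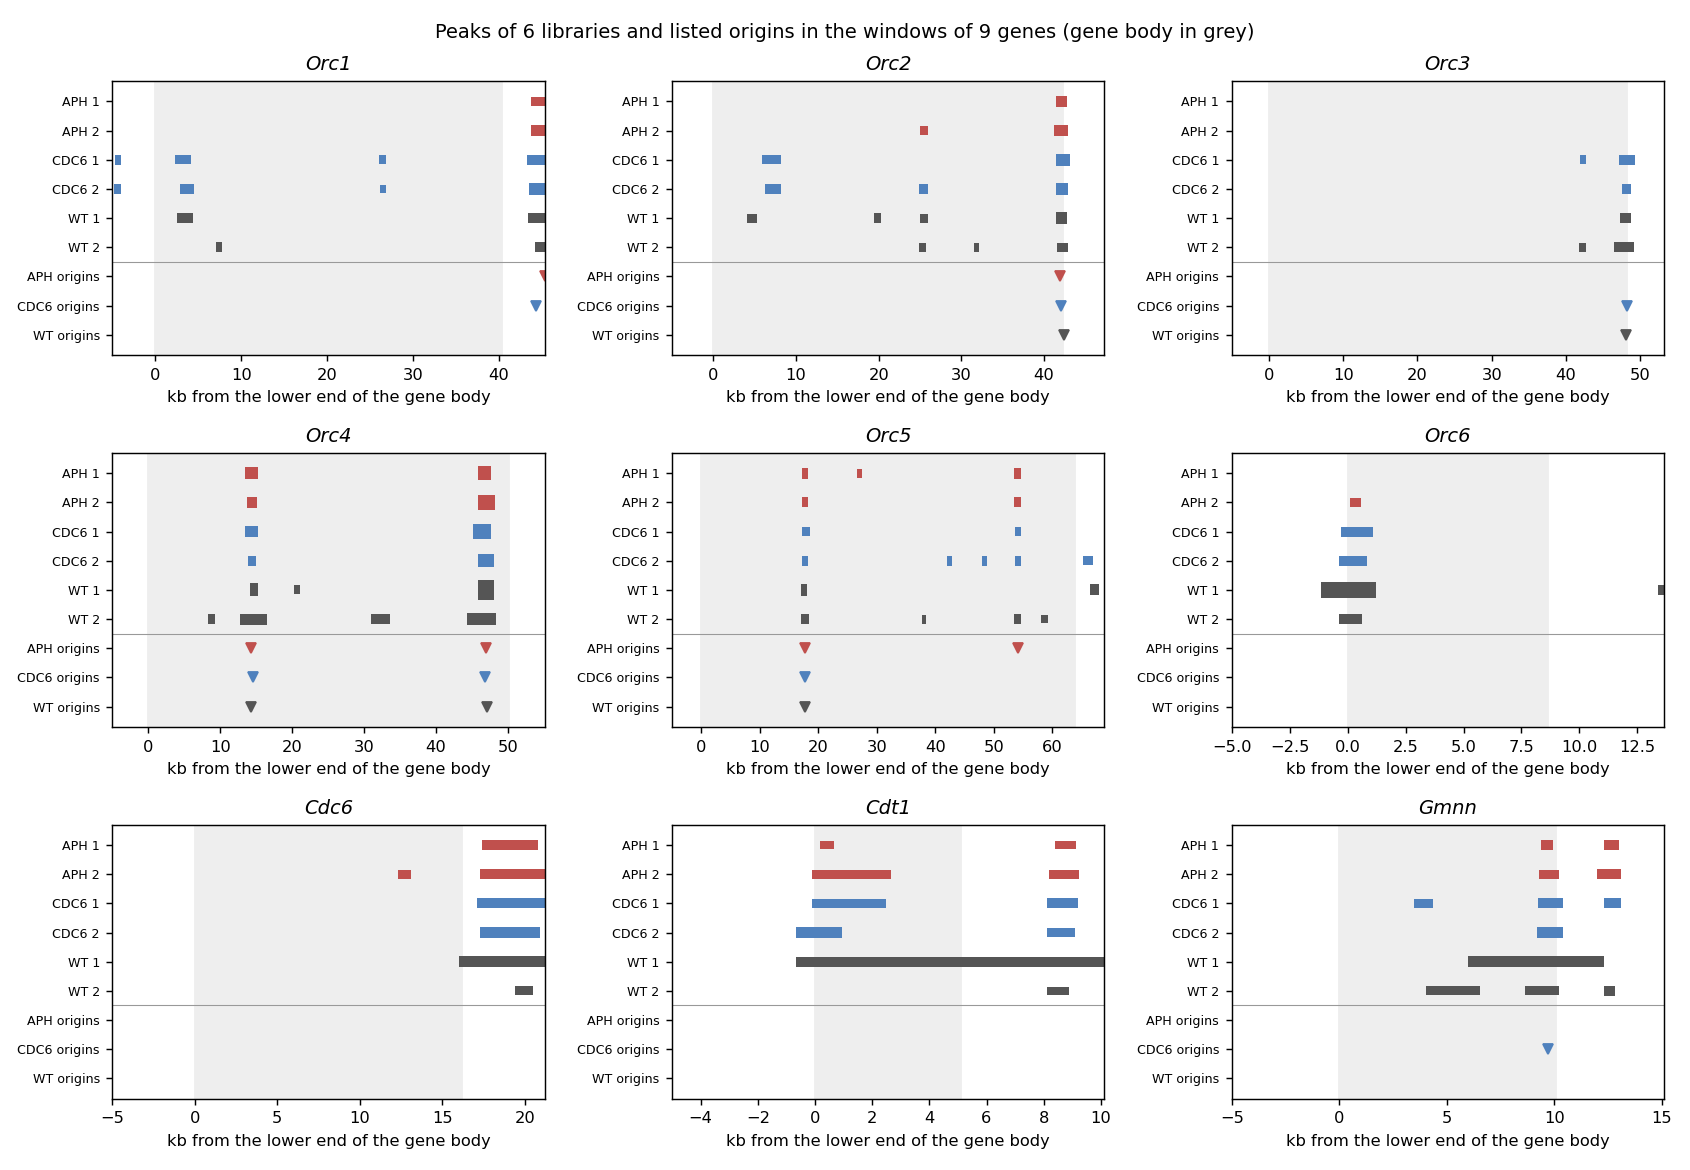
Peaks of the 6 libraries (bars, taller for a larger fold over control) and midpoints of listed origins (triangles) against distance in kb from the lower end of each gene body, which is shaded; bars are cut at the window's edge. Orc2, Orc4 and Orc5 have an origin in all 3 lists, and Orc6, Cdc6 and Cdt1 have none.

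An origin of the APH list lay in 4 of the 9 windows, against 53.6% of all gene windows. The CDC6 list placed an origin in 6 of 9 windows, against 58.5% of all genes. The WT list placed an origin in 4 of 9 windows, against 48.1% of all genes. Orc2, Orc4 and Orc5 had an origin in all 3 lists (3 of 9, against 41.6% of all genes), and Orc6, Cdc6 and Cdt1 had none in any. The members' windows were longer than most, at 15.1 to 73.9 kb with a median of 50.3 kb against 27.3 kb over all genes. Among the 12777 genes with windows in that same range of length, 53.3% (APH), 59.7% (CDC6) and 48.2% (WT) held an origin. The members' shares lay near these backgrounds. With the lists cut to equal length by the second of the 2 scores of a region, highest first, the counts were 2 (APH), 4 (CDC6) and 4 (WT) of 9.

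Orc4, an ATPase subunit of the complex, carried the strongest peak of the 9 genes. The peak over its start had a fold of 4.93 and 5.52 in APH, 5.22 and 4.35 in CDC6 and 8.11 (WT 1) and 4.05 (WT 2) in WT. Its rank was 93.8 and 94.2 in APH, 93.7 and 90.9 in CDC6 and 99.4 and 95.7 in WT. Even the lowest of these ranks lay above every rank of the other genes except that of Orc6 in WT 1. A further peak inside the gene, 31502 bp from the start by the WT list, was present in all 6 libraries, with folds of 3.76 and 3.52 in APH, 3.13 and 2.81 in CDC6 and 4.36 and 3.22 in WT. All 3 origin lists placed an origin at each of these sites, among them the WT origins at chr2:48948958-48950862 and chr2:48916511-48917765. The start of Mbd5, read from the opposite strand, lies 573 bp from that of Orc4, so a peak there cannot be assigned to either gene.

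Orc2, whose product forms the core of the complex with ORC3, also had a start peak in all 6 libraries. Its fold was 3.13 and 3.24 in APH, 3.95 and 3.83 in CDC6 and 4.01 (WT 1) and 2.49 (WT 2) in WT. The APH and CDC6 values lay between those of the WT libraries. The origins over the start were chr1:58504209-58505241 in APH, chr1:58504353-58505387 in CDC6 and chr1:58504865-58505554 in WT. The noncoding RNA gene Gm15834 starts 6 bp away on the opposite strand. Other peaks inside Orc2 were weak, with a rank of 60.4 at most, and none of them had an origin in any list.

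Orc3 had no peak anywhere in its 58.2 kb window in either APH library. It had 2 and 1 peaks in the CDC6 libraries and 1 (WT 1) and 2 (WT 2) in the WT libraries. The start peak had a fold of 2.50 and 2.67 in CDC6 and 2.60 and 2.56 in WT, and ranks of 60.3 and 66.7 in CDC6 and 64.1 and 70.1 in WT. The CDC6 and WT values thus lay close together, while both APH libraries lacked the peak. The CDC6 list (chr4:34614679-34615432) and the WT list (chr4:34614153-34615519) placed an origin over this start, and the nearest APH origin lay 15.3 kb from the gene body. Rars2, the gene of a mitochondrial arginyl-tRNA synthetase, starts 15 bp away on the opposite strand and shares the peak.

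Orc6, the subunit least like the others, showed the same pattern at its start. The start peak had a fold of 2.77 and 2.70 in CDC6 and 6.02 (WT 1) and 2.43 (WT 2) in WT. APH 1 had no peak in the window, and APH 2 had a peak with a fold of 2.27 that began 0.119 kb after the start, beyond the start window. The rank of the strongest peak was 36.8 in APH 2, 70.1 and 54.8 in CDC6 and 98.1 and 59.6 in WT. Without WT 1, whose share of peaks on this chromosome was raised, the CDC6 ranks lay on either side of the remaining WT value. No list placed an origin in the window, and the nearest lay 67.2 kb away in each. A start peak in both CDC6 and both WT libraries and in neither APH library, as in Orc3 and Orc6 (2 of 8 members), occurred in 1.08% of all start windows. The pattern was taken from these same genes, so the share is a description and supports no result about the members. At Orc6 it also rests on where the start window ends.

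Orc1, the subunit that reads histone methylation through its BAH domain and is degraded and remade in each cell cycle, had 1 and 1 peaks in the APH libraries, 4 and 4 in the CDC6 libraries and 2 and 2 in the WT libraries. Only the site beyond the end of the gene, at the start of Cc2d1b, had a peak in all 6 libraries, with ranks of 44.2 and 81.7 in APH, 79.9 and 84.3 in CDC6 and 81.9 and 78.9 in WT. The extra CDC6 peaks lay over the start, where WT 1 also had a peak, and at sites 22.3 and 7.72 kb from it that no other library shared. Their ranks were low, with 36.6 and 24.7 over the start and 48.2 at most at the other sites. The CDC6 origin (chr4:108619451-108620673) and the APH origin (chr4:108621024-108621495) lay at the Cc2d1b site. This APH origin lay 4.99 kb from the gene body, at the window's edge, and the nearest WT origin lay 5.08 kb from it, just beyond the window. Whether Orc1 counts in APH or in WT thus rests on where the window ends, and the APH count was 3 of 9 by the midpoint of the origin or with a flank of 0 kb. Prpf38a, a splicing factor gene, starts 118 bp away on the opposite strand.

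Orc5, an ATPase subunit, had no peak over its start in any of the 6 libraries. All 6 had a peak deep in the gene, about 45.4 kb from the start, with folds of 3.25 and 2.68 in APH, 2.32 and 2.95 in CDC6 and 3.35 (WT 1) and 3.02 (WT 2) in WT. All 3 lists placed an origin there, at chr5:22503878-22504421 in APH, chr5:22503837-22504420 in CDC6 and chr5:22503892-22504507 in WT. A site 9.16 kb from the start had a peak in 5 libraries, with folds of 3.04 and 2.83 in APH, 2.10 and 2.69 in CDC6 and 3.03 in WT 2. Only the APH list placed an origin at this site (chr5:22540327-22540912), although the WT 2 peak had about the same fold as the APH 1 peak. The strongest peak of the window ranked 75.3 and 63.4 in APH, 30.3 and 58.9 in CDC6 and 78.8 and 82.5 in WT. The APH and CDC6 ranks lay below both WT ranks, as they did at Orc4. How often ranks fall in this order over all genes was not counted, so the order is only described.

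Cdc6, the gene raised from a transgene in the CDC6 libraries, had no peak over its start in any library. Peaks touched its 16.2 kb body only in APH 2, over 749 bases inside the gene, and in WT 1, over 201 bases at its far end. In both CDC6 libraries 0 bases of the body were covered, as in APH 1 and WT 2. Extra copies of the gene's exons could have added signal there in the 5 TetO-CDC6 libraries, and no CDC6 library had a listed peak on the body. Where the exons lie was not analysed here. The site shared by all libraries lay beyond the end of the gene, towards Rara, with folds of 2.85 and 2.75 in APH, 2.65 and 3.30 in CDC6 and 3.30 (WT 1) and 2.26 (WT 2) in WT. The CDC6 folds lay within the range of the WT libraries. The nearest origin lay 8.53 kb from the gene body in APH, 11.4 kb in CDC6 and 8.79 kb in WT, outside the window in each list.

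Cdt1, whose product escorts the MCM helicase, had peaks at the start and near the neighbouring gene Aprt. Over the start, the fold was 2.34 in APH 2, 2.44 and 2.83 in CDC6 and 2.88 in WT 1, and the peak of APH 1, with a fold of 2.07, began 0.158 kb after the start, beyond the start window. WT 2 had no start peak. In WT 1 a single peak 16.9 kb wide covered both sites, which counts as 1. Peaks covered 8.28% and 25.1% of the window in the APH libraries, 24.6% and 17.1% in the CDC6 libraries and 71.3% (WT 1) and 5.05% (WT 2) in the WT libraries. No list placed an origin in the window, and the nearest lay between 15.9 and 16.2 kb away. The start peak was therefore present in both CDC6 libraries without a listed origin, as at Orc1 and Orc6.

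Gmnn, which has no entry in the start table, had a peak over the upper end of its body in all 6 libraries. Its fold was 2.29 and 2.38 in APH, 2.81 and 3.39 in CDC6 and 3.41 (WT 1) and 2.31 (WT 2) in WT. At this upper end the CDC6 values lay above the APH values and within the range of the WT libraries, and the WT 1 peak was 6.30 kb wide. Peaks beyond the upper end had a fold of 2.68 and 2.72 in APH, 2.78 in CDC6 1 and 2.63 in WT 2. CDC6 2 had none there, and the wide WT 1 peak reached this site. In both APH libraries and WT 2 these were the strongest peaks of the window. Only the CDC6 list placed an origin over the upper end of the body (chr13:24761208-24761908), and the nearest origin lay 39.1 kb away in APH and 39.3 kb away in WT.

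**Figure D2:**
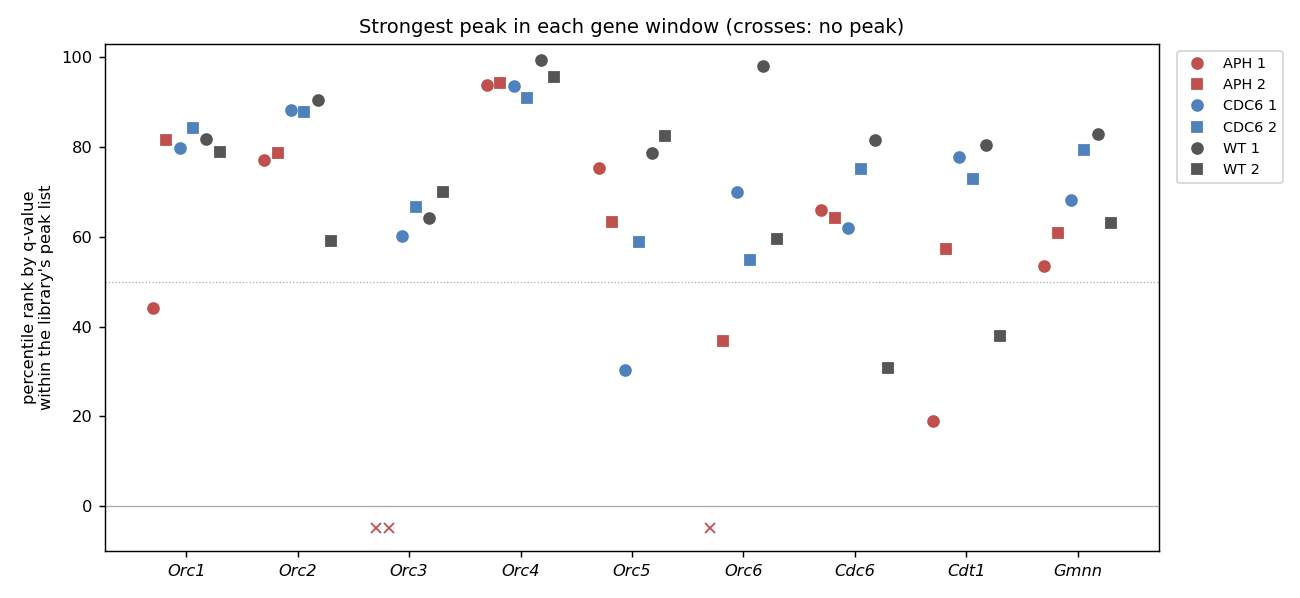
Percentile rank by q-value of the strongest peak in each gene window, within the peak list of each library (100 is the strongest; crosses, no listed peak). Orc4 sits between 90.9 and 99.4 in every library, Orc3 has no peak in either APH library, and WT 1 stands at 98.1 for Orc6.

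Across the 8 genes with an entry, the start window held a peak in 2 and 3 genes in APH, in 6 and 6 in CDC6 and in 6 (WT 1) and 4 (WT 2) in WT. Over all 17273 genes with an entry the shares were 40.5% and 45.1% in APH, 52.2% and 51.6% in CDC6 and 59.4% and 39.7% in WT. The APH libraries thus covered fewer of the members' starts than any other library, while over all genes APH 1 and APH 2 lay above WT 2. The members' counts depend on where the start window ends. The Orc6 peak of APH 2 began 0.119 kb after the start and the Cdt1 peak of APH 1 began 0.158 kb after it, and neither was counted. Orc2 and Orc4 were covered in all 6 libraries (2 of 8, against 34% of all genes), Orc3, Orc6 and Cdt1 in 4, Orc1 in 3, and Orc5 and Cdc6 in none. Where both libraries of a condition had a start peak, an origin of its list lay over the start in 2 of 2 members in APH, 3 of 6 in CDC6 and 3 of 4 in WT, against 73.4%, 73.9% and 71.1% of all such genes.

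**Figure D3:**
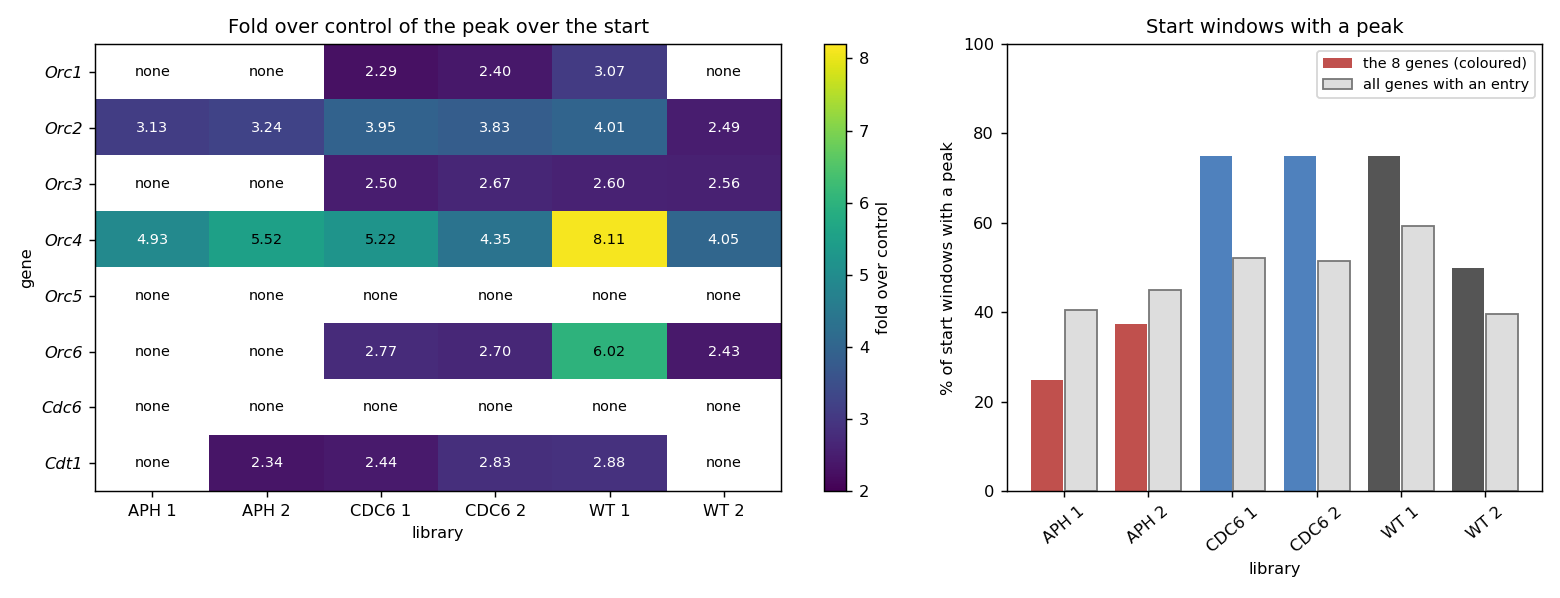
Left, fold over control of the peak over the start of each gene with an entry in the start table, by library ("none", no listed peak). Right, share of start windows with a peak in each library, for the 8 genes (coloured) and for all genes with an entry (grey); Orc3 and Orc6 are covered in both CDC6 and both WT libraries only.

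For the tests, WT 1 and WT 2 formed a single group, although WT 1 came from another line in other medium. Each contrast with WT, here and for the ranks below, thus mixes treatment with line and medium, and these cannot be told apart. The number of peaks on these genes was compared between the groups with limma on log2(scaled peaks + 1), over the 15140 genes with a mean of at least 1 peak. Orc6 had a lower mean and was not tested. Orc3, with 0 peaks in both APH libraries, reached that mean only through the CDC6 and WT libraries, so its difference in APH, -1.22 ± 0.33 (SE), is a description. It depends on the pseudocount (-1.86 with 0.5) and was -0.88 without WT 2, and Orc3 was not tested with a flank of 0 kb, a q-value of 0.01 or the score lists, where its mean was lower. Cdt1 differed by 0.74 ± 0.19 in APH with an unadjusted p of 0.00948, and by -0.10 with peaks of a q-value of 0.01 or less. In CDC6, Orc1 differed by 0.86 ± 0.20 with an unadjusted p of 0.0059 (0.26 with peaks of a q-value of 0.01 or less) and Cdt1 by 0.68 ± 0.19 with an unadjusted p of 0.013. At Orc1 and Cdt1 the 2 libraries of each group had the same number of peaks. Their own spread within a group therefore comes from the scaling alone, and these SEs and p-values do not measure a difference between replicates. None of the 8 members passed an adjusted p of 0.05 (limma, Benjamini-Hochberg over all genes tested), and the lowest was 0.38 for APH minus WT and 0.453 for CDC6 minus WT. The share of all genes called was 0% in each contrast. At an unadjusted p under 0.05 there were 2 of 8 members in each contrast, against 8.19% of all genes for APH minus WT and 9.04% for CDC6 minus WT. These were Orc3 and Cdt1 in APH and Orc1 and Cdt1 in CDC6. Because Orc3 is described only, and Orc1 and Cdt1 had no spread within a group before scaling, no result about the members is drawn from these counts. Of the members, 4 lay above 0 and 4 below in APH, with a median of -0.18 against 0.04 over all genes. Orc3, which is described only, is among the 4 below 0 and enters this median. In CDC6, 5 lay above and 3 below, with a median of 0.11 against 0.12.

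The numbers behind these tests are small whole numbers. Both APH libraries had fewer peaks than both WT libraries in Orc1, Orc2, Orc3 and Orc4, 4 of 8 members against 14.6% of all genes. They had more in Cdt1, 1 of 8 against 3.43%. Orc3 is among the 4 and passed the filter only through the CDC6 and WT libraries. These counts are not scaled, and both APH lists were shorter than both WT lists. The members' windows were also longer than most, with a median of 50.3 kb against 27.3 kb. The share among genes with windows of like length was not counted, so no result about the members is drawn. Both CDC6 libraries had more peaks than both WT libraries in Orc1 and Cdt1, 2 of 8 against 7.17%, and fewer in Orc4, 1 of 8 against 8.06%. At Cdt1 the WT 1 count came from the wide peak described above. Without scaling to the library totals, Orc1 (-0.58 in APH, 0.74 in CDC6) and Cdt1 (0.58 in both) passed the threshold, with adjusted p-values of 0.00344 to 0.00781 by limma. In those genes the 2 libraries of each group had the same whole number, so the unscaled values had no spread within a group.

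**Figure D4:**
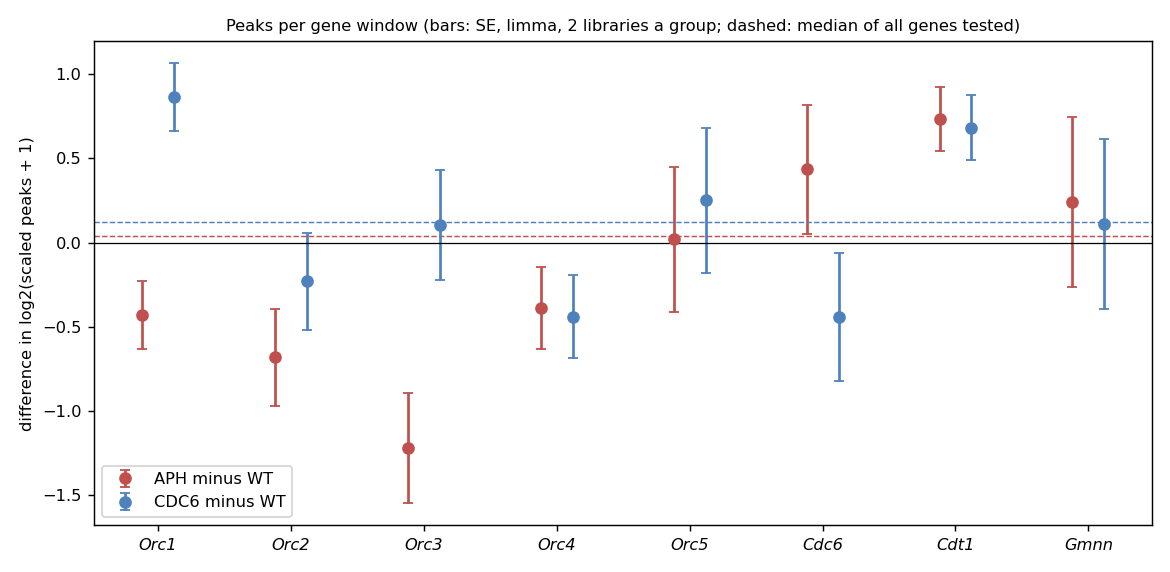
Difference in log2(scaled peaks + 1) for the 8 genes tested, APH minus WT (red) and CDC6 minus WT (blue); bars are the SE from limma with 2 libraries a group, and dashed lines mark the median of all genes tested. Orc3 lies at -1.22 in APH and 0.10 in CDC6, and Orc1 at -0.43 and 0.86.

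The rank of the strongest peak was tested for the 7 members with a peak in all libraries, which leaves out Orc3 and Orc6, among 13438 genes. In APH the differences ran between -21.1 points (Cdt1) and 8.86 points (Cdc6), with a median of -11.3 points against -0.16 over all genes. In CDC6 they ran between -36.1 points (Orc5) and 16.1 points (Cdt1), with a median of 1.78 points against 0.39. The Orc5 value was -21.8 points without CDC6 1 and -50.3 points without CDC6 2. Orc4, at -5.24 ± 2.03 points in CDC6, had the lowest unadjusted p of the members (0.0284). No member passed the threshold, with a lowest adjusted p of 0.602 in APH and 0.707 in CDC6 by limma, and 0% of all genes were called in either contrast. At an unadjusted p under 0.05 there were 0 of 7 members in APH, against 9.06% of all genes, and 1 of 7 in CDC6, against 7% of all genes. The calls over all genes moved with the WT libraries: without WT 1 there were 612 and 930 rank calls (APH, CDC6) and 0 and 462 peak-number calls, and without WT 2 there were 49 and 29 rank calls and 169 and 1 peak-number calls. None of the members tested was among them.

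The other genes of licensing were described from a list of 19, which holds the MCM helicase, its partners, and factors that modify histones at origins or degrade CDT1. An origin lay in 9 of the 19 windows in APH, 15 in CDC6 and 10 in WT, against 53.6%, 58.5% and 48.1% of all gene windows. Mcm3 and Mcm6 (helicase subunits), Mcmbp (a binding partner of the helicase), Lrwd1 (a partner of the recognition complex), Kmt5a (the H4K20 methyltransferase), Cul4a, Cul4b and Skp2 (parts of ubiquitin ligases) and Fzr1 (an activator of the anaphase-promoting complex) had an origin in all 3 lists. Mcm4, Mcm7, Kat7 (a histone acetyltransferase) and Gmnc (a relative of geminin) had none. Among the 18 tested for peak number, none passed the threshold. Mcm4 had 0 and 0 peaks in APH, 1 and 1 in CDC6 and 2 and 2 in WT, so it too passed the filter only through the CDC6 and WT libraries, and its spread within a group comes from the scaling alone.

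The mean pattern of the members' scaled peak numbers over the 6 libraries was most like those of Ccdc88a (Pearson r = 0.997), Gapvd1 (0.984) and Baz2b (0.977) among 15132 other genes, of which 29 had an r over 0.95. Ccdc88a had 5 and 6 peaks in APH, 9 and 10 in CDC6 and 7 and 12 in WT. The pattern of Cdc6 was most like those of Epha4 (0.979), Bricd5 (0.975) and Zfp970 (0.958). These values describe 6 libraries that were all set against the same control library.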

How the data were processed

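Short nascent strands were measured in 6 libraries of mouse embryonic stem cells, 2 for each of APH, CDC6 and WT; an input sample was not analysed here. The deposited peak lists give a fold over control, a −log10 p-value and a −log10 q-value for each peak, as the authors' peak caller wrote them. The deposited score lists and origin lists give 2 scores a region, and for these scores a method is not given in the sources here. BWA 0.7.10, SAMtools 0.1.19, Picard 1.107, MACS2 2.0.10, bedtools 2.23.0, FastQC and the builds GRCm38, mm10 and mm9 are named in the submitters' processing notes, with no roles. Peaks covered 37.9 to 57.7% of RefSeq GRCm38 start windows and 7.24 to 12.3% of the same windows moved by 20 kb, so GRCm38 was used. Read depth is unknown, so no counting intervals are given.

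A peak was counted in the window that holds its midpoint, scaled to the mean list total, and log2(peaks + 1) was tested with limma 3.58.1 (R 4.3.3) over genes with a mean of at least 1 peak. Ranks of the strongest peak by q-value were tested likewise. An origin counted with an overlap of at least 1 bp. The test of peak numbers was checked on simulated data, with large changes placed in genes with more peaks than any of the members. Whether it finds changes in genes with as few peaks as the members was not checked. The 9 genes were chosen by name, the other licensing genes by the stated rule (those called, those with an origin in all 3 lists and those with none), and the like genes as the 3 with the highest correlation. Members and lists were chosen with earlier results of these data known. Alternatives were the pseudocount, scaling, filter, flank, q-value, overlap, score lists, equal list lengths, a replicate block and leaving out each library.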

Additional observations from a re-analysis of the deposited data

How the results depend on the processing

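The 0 calls over all genes held in both peak-number contrasts with a pseudocount of 0.5, a flank of 0 or 10 kb, a q-value of 0.01, an overlap of 1 bp and the score lists, and in both rank contrasts with either flank and ranking by fold. Peak-number calls were 318 (APH) and 277 (CDC6) with no filter and 375 and 384 without scaling, and rank calls were 17 and 25 with a rank of 0 where no peak was listed. Leaving out each library gave 0 to 169 (APH) and 0 to 462 (CDC6) peak-number calls and 0 to 612 and 0 to 930 rank calls; a lone library was assumed to vary like the other groups. The APH list fell to 2 of 9 members with lists of equal length. The labels do not say whether libraries of the same number were paired. Deviations of same-numbered libraries correlated at -0.135 (APH with WT), 0.0102 (CDC6 with WT) and -0.0524 (APH with CDC6). The WT libraries differ in line and medium, so the values with WT can neither show nor exclude a pairing. With a replicate block the count of calls stayed at 0 in all 4 tests, and with the crossed pairing, added after seeing the data, it was 0 for APH minus WT.

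Of 370 member values under the alternatives, 34 changed sign, and no such value passed the threshold; the cause was not tested. For APH minus WT peak numbers these were Gmnn at -0.16 and -0.19 (flank of 0 and 10 kb), Orc5 at -0.16 (no scaling), Cdt1 at -0.10 (q-value of 0.01), and Orc2, Orc4 and Orc5 at 0.0764, 0.49 and -0.23 (score lists). For CDC6 minus WT they were Orc2 at 0.27 and Gmnn at -0.32 (flank of 10 kb), Cdc6 at 0.0906 (overlap) and Orc2 at 0.0397 (q-value of 0.01). For CDC6 minus WT ranks they were Cdc6 at -1.55 and Gmnn at -2.36 points (flank of 10 kb) and Gmnn at -1.50 points (ranking by fold).
Leaving out each library also changed signs: peak numbers for APH minus WT ran between -0.42 and 0.46 (Orc5) and -0.31 and 0.79 (Gmnn), and for CDC6 minus WT between -0.25 and 0.45 (Orc3), -0.93 and 0.0447 (Cdc6), -0.45 and 0.67 (Gmnn) and -0.19 and 0.69 (Orc5). Ranks for APH minus WT ran between -36.2 and 1.39 (Orc1), -42.4 and 0.11 (Cdt1), -12.5 and 18.9 (Orc2) and -16.6 and 34.3 points (Cdc6), and for CDC6 minus WT between -0.41 and 3.97 (Orc1), -9.18 and 10.8 (Gmnn), -2.48 and 29.0 (Orc2), -13.0 and 37.9 (Cdc6) and -5.12 and 37.4 points (Cdt1).
Peak lists without depth limit what a missing peak can show.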

Other observations

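The score lists, read as labelled, placed regions in the same windows. Orc4 held 4 and 2 regions in the lists labelled APH, 2 and 2 in those labelled CDC6 and 4 (WT 1) and 2 (WT 2) in those labelled WT. Orc3, without a peak in the APH peak lists, held 1 region in each score list labelled APH, 0 and 1 in those labelled CDC6 and 1 and 0 in those labelled WT. Because the APH and WT origin lists recur in score lists of another label, the numbers under those labels cannot be tied to a condition.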
